A study of Mus musculus with 6 samples.

Results

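Serpina3f, Serpina3g and Serpina3n are 3 of the 10 mouse genes of the Serpina3 branch with an amplicon in the deposited table, which holds 23930 amplicons in all. They were chosen by symbol, and were selected on results of these same libraries, in which Serpina3g was among the genes with the greatest rise. Their values between genotypes are therefore given as a description, without a test. The tissue was the shaft of the humerus, taken from E16.5 mouse embryos. The knockout group held 3 samples of genotype Prrx1Cre; Stat3C/C, which the labels also call Stat3 KO, and the control group 3 samples of genotype Stat3C/+, which carried 1 Stat3C allele although the labels call them wild type. The labels do not spell out what C denotes, and do not say whether the samples were single embryos, pools or litters. Prrx1Cre is a Cre recombinase driver active in limb bud mesenchyme, and not in the blood lineages that also enter bone. Each gene was read at 1 amplicon of the Ion AmpliSeq mouse transcriptome panel and reported in RPM, the reads of an amplicon scaled to the library's total.

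Serpins are protease inhibitors that offer a loop as bait, are cut by the protease and trap it in an irreversible complex. In humans a single gene, SERPINA3, encodes alpha-1-antichymotrypsin, an acute phase protein of plasma. In the mouse the locus has multiplied into a row of similar genes on chromosome 12. Liver genes of the acute phase response are classic targets of interleukin 6 acting through STAT3, while Serpina3g is also known as an interferon-induced and NF-kappa B-induced gene of immune cells.

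Depth ranged from 9126493 to 11809106 reads in the knockout libraries and from 11640697 to 13376550 reads in the control libraries, so 1 read was worth 0.0748 to 0.110 RPM. Reads carried no molecular identifiers, and every interval on reads below covers counting error only. The osteoblast markers, 7 of 8 in the table, summed to 40740 to 45210 RPM in knockout and 46550 to 50450 RPM in control libraries. Most of this sum was Col1a1, at a mean of 27670 RPM in knockout and 28710 RPM in control samples. Of the 7 markers, 5 were lower in the knockout (limma, adjusted p under 0.05), against 11% lower over all amplicons tested. The samples did not hold bone alone. Skeletal muscle markers summed to 6604 to 7137 RPM in knockout and 7796 to 8207 RPM in control libraries. Fibroblast and tendon markers summed to 9248 to 9770 RPM in knockout and 6836 to 7553 RPM in control libraries. The part of tissue mix in the values below was not tested. The Stat3 amplicon gave 193 ± 20.1 RPM in knockout and 208 ± 5.82 RPM in control samples (SD, n = 3 each) with no call (adjusted p = 0.380, limma). The sources used here do not place it relative to the deleted part, so it checks nothing about the labels. In bulk tissue, fewer cells of a type and less RNA per cell cannot be told apart.

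Serpina3f and Serpina3g were read at higher levels in every knockout library than in any control library, and Serpina3n was close to 0 in all 6. Of the 3 genes, 2 passed the filter of a mean of at least 1 RPM. Serpina3f passed it only through the knockout group. Among all 12846 amplicons that passed, 11.9% had every knockout library above every control library. This share is printed for reference, since the contrast had already chosen the genes.

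Serpina3f (amplicon AMPLSerpina3f_1_1.4579, gene ENSMUSG00000066363.12 on the plus strand of chromosome 12 from 104214544 to 104221129, GRCm38) encodes one of the less studied inhibitors of the branch. It was read at 10.1, 10.8 and 10.9 RPM in the knockout libraries, which is 119, 99 and 107 reads, and at 0.601, 0.374 and 0.246 RPM in the control libraries, which is 7, 5 and 3 reads. The knockout libraries lay close together and far above all 3 controls, where the gene was at or little above the floor of 3 reads. The means were 10.6 ± 0.473 RPM in knockout and 0.407 ± 0.180 RPM in control samples (SD, n = 3 each). The difference in log2(RPM + 1) was 3.05 ± 0.19 (SE). The pooled reads per depth were 26.2-fold higher in the knockout, with a 95% exact interval of 15.7 to 47.4. Because the control level is below the pseudocount of 1 RPM, the log2 difference moved to 4.46 with a pseudocount of 0.1 RPM and to 0.99 with 10 RPM. A library's spread around its group mean was 4.45% in knockout and 44.2% in control samples (SD over mean), where counting error alone would give 9.64% and 47.5%.

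Serpina3g (amplicon AMPLSerpina3g_1_1.1098, gene ENSMUSG00000041481.16 on the plus strand of chromosome 12 from 104236245 to 104241939) encodes an intracellular serpin, also called Spi2A, that is known to inhibit lysosomal cysteine cathepsins released into the cytosol. It was read at 23.2, 28.8 and 27.5 RPM in the knockout libraries, which is 274, 263 and 269 reads, and at 4.81, 6.88 and 6.74 RPM in the control libraries, which is 56, 92 and 82 reads. The lowest knockout library stood well above the highest control library. The means were 26.5 ± 2.94 RPM in knockout and 6.14 ± 1.15 RPM in control samples (SD, n = 3 each), with a difference in log2(RPM + 1) of 1.95 ± 0.15 (SE), which fell to 1.18 with a pseudocount of 10 RPM. The pooled reads per depth were 4.24-fold higher in the knockout (95% exact interval 3.66 to 4.93). Unlike Serpina3f, this gene was clearly read in controls, and the relative spread was 11.1% in knockout and 18.8% in control samples, against 6.10% and 11.7% from counting.

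Serpina3n (amplicon AMPLSerpina3n_4_1.12026, gene ENSMUSG00000021091.8 on the plus strand of chromosome 12 from 104406729 to 104414329) encodes a secreted inhibitor of granzyme B and leukocyte elastase, and is the paralogue usually followed as the acute phase Serpina3 of the mouse. It had 1, 0 and 1 reads in the knockout libraries and 0, 1 and 3 reads in the control libraries. No library exceeded the floor of 3 reads, which is 0.224 to 0.329 RPM depending on depth, so no fold is given and a difference was not detectable at this depth. Whether the low value reflects the transcript or the yield of this amplicon cannot be told apart with 1 amplicon per gene. The levels read here are therefore those of Serpina3f and Serpina3g. The name acute phase inhibitors is that of the family and not a result of these data.

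**Figure D1:**
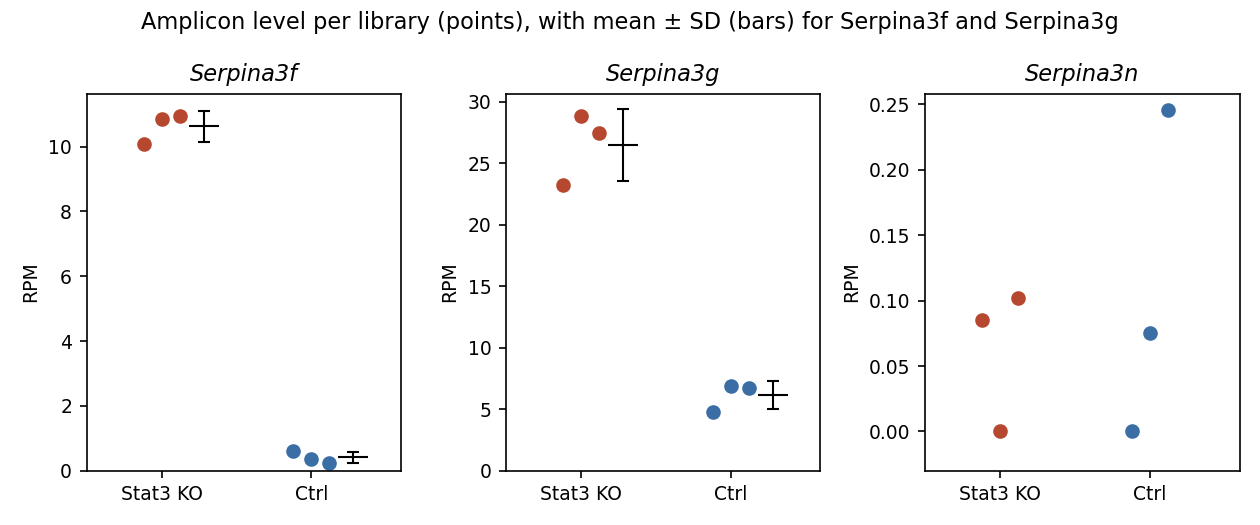
RPM of the Serpina3f, Serpina3g and Serpina3n amplicons in the 3 Stat3 KO and 3 Ctrl libraries (points), with the mean and SD as bars where every library had reads. Each panel has its own axis. Serpina3f and Serpina3g separate the genotypes without overlap, while no library exceeded 0.246 RPM for Serpina3n.

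The genes are near relatives, and reads could be credited to the wrong one. Aligned end to end, the longest coding transcripts of Serpina3f and Serpina3g in GENCODE M21 were identical at 88.8% of aligned bases, Serpina3g and Serpina3n at 82.1%, and Serpina3f and Serpina3n at 79.4%. Of all windows of 100 bases, 3.58% in Serpina3f, 4.64% in Serpina3g and 0.204% in Serpina3n occurred unchanged in a transcript of another gene. The sources used here do not place the amplicons in the transcripts, so whether they fall in such windows was not tested. Serpina3f RPM was 43.4%, 37.6% and 39.8% of Serpina3g RPM in the knockout libraries and 12.5%, 5.44% and 3.65% in the control libraries. The ratio thus differed between the groups, but the control values rest on 7, 5 and 3 Serpina3f reads. Whether reads were shared was not tested by it. Amplicons differ in yield, and these ratios do not compare the abundance of the transcripts.

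The RefSeq promoter windows of the 3 genes (GRCm38.p6, from 250 bases before the start to 50 after it, all on the plus strand) are shown because the genes share a stretch that matches the STAT recognition sequence in Serpina3f and Serpina3g but not in Serpina3n. Serpina3f has 2 RefSeq starts, and the upstream one is printed. The windows are chr12:104214294-104214593 for Serpina3f, chr12:104235897-104236196 for Serpina3g and chr12:104406458-104406757 for Serpina3n. Capitals mark the stretch at the STAT position in all 3 and a match to the kappa B consensus in Serpina3g.
Serpina3f: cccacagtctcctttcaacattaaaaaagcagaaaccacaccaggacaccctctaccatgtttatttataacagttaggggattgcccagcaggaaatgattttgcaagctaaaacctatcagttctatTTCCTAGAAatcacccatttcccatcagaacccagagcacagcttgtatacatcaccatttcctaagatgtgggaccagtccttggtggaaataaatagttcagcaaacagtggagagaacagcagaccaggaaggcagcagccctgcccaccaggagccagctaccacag
Serpina3g: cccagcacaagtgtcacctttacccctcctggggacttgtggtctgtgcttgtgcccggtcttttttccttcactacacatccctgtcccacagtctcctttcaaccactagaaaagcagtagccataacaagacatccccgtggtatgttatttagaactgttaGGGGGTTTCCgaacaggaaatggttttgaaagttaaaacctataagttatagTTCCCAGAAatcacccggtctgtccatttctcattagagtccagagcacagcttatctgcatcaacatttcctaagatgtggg
Serpina3n: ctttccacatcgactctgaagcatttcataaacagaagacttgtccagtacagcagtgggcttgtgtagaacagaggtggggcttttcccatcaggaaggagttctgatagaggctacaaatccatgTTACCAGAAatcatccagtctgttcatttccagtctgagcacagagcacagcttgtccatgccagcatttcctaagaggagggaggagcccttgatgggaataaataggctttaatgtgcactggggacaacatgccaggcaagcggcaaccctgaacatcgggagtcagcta

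The motifs searched on both strands were the STAT motif TTCNNNGAA, the interferon-stimulated element core AAANNGAAA, the C/EBP motif TTNNGNAA and the kappa B consensus. The STAT motif stood 121 bases before the RefSeq start in Serpina3f and 33 bases before it in Serpina3g. It was present in 8.30% of 32851 promoter windows. The Serpina3g window ends at 104236196, before the GENCODE start at 104236245, so distances in this gene depend on the annotation. In an alignment of the windows, the stretches of Serpina3g and Serpina3f differed by T5C, read from Serpina3f to Serpina3g with positions counted from the 5′ end of the motif. The aligned stretch of Serpina3n differed from that of Serpina3g by C3A, which breaks the match. The kappa B consensus was found 85 bases before the start of Serpina3g and in 4.51% of windows. The interferon-stimulated element core was found in none of the 3 windows and in 10.6% of all. The loose C/EBP motif was found in all 3 and in 40.7% of all. A match is a description of letters and not of binding, and windows of relatives share descent. Among the other branch members with a window in RefSeq, Serpina3i also held the STAT and kappa B matches, and its amplicon had at most 1 read in any library.

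No other gene of the branch was read at a level that could be tested, and 12 of 13 tested neighbours did not pass. The other 7 Serpina3 amplicons in the table (Serpina3a, Serpina3b, Serpina3c, Serpina3h, Serpina3i, Serpina3j and Serpina3k) stayed under 1 RPM, with at most 7 reads in any library, and none could be tested. Serpina3h, the highest of them, had 4, 3 and 7 reads in knockout and 3, 3 and 1 reads in control libraries. All 18 other clade A amplicons were under 1 RPM, and 6 of them had no read in any library. Serpina3f and Serpina3g lie 15.1 kb apart, and Serpina3n lies 164.8 kb beyond Serpina3g. Within 1 Mb of this stretch, 13 of 24 amplicons of other genes could be tested, of which 0 were higher and 1 lower, with a median log2 difference of -0.00 against -0.06 over all amplicons tested. Over the whole table, 5.71% of tested amplicons were higher, 11% lower and 16.7% called either way (limma, adjusted p under 0.05). That is 733 higher and 1409 lower, a split that TMM scaling turned to 1042 higher and 928 lower.

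The nearest tested neighbour, the homeobox gene Gsc at 56.9 kb, was at 7.74 ± 0.667 RPM in knockout and 6.56 ± 1.19 RPM in control samples (SD, n = 3 each, limma adjusted p = 0.383). Dicer1, which encodes the enzyme that cuts microRNA precursors, was at 52.0 ± 1.14 RPM in knockout and 57.1 ± 1.15 RPM in control samples and did not pass (adjusted p = 0.337). The lower gene was Asb2, a ubiquitin ligase subunit gene 858.5 kb away, at 36.3 ± 1.41 RPM in knockout and 48.5 ± 1.77 RPM in control samples (log2 difference -0.41 ± 0.10, SE, adjusted p = 0.00632). Without control replicate 3 the neighbours called were 2.

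**Figure D2:**
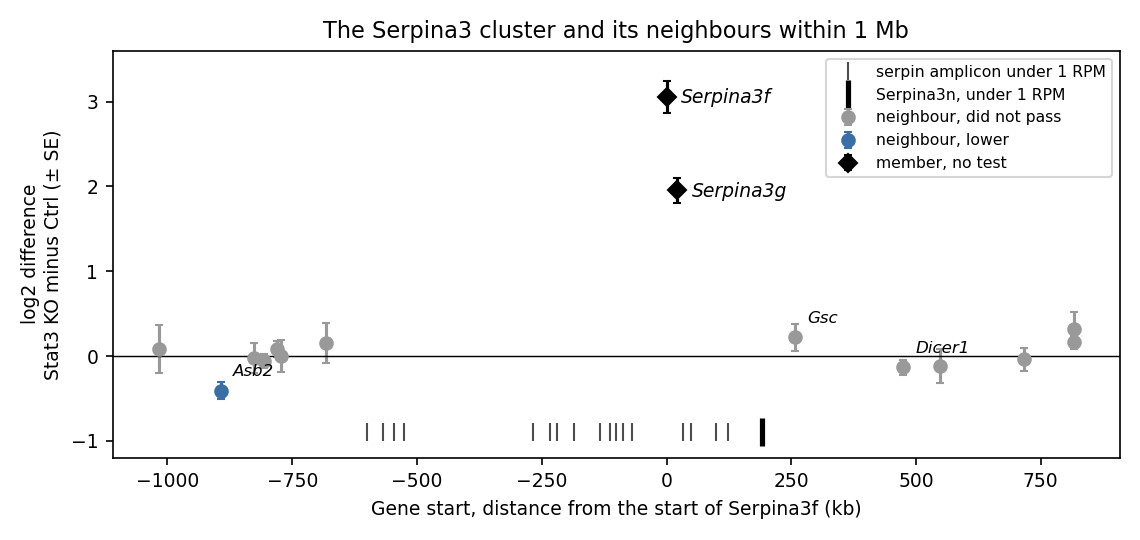
Log2 difference in RPM + 1 (Stat3 KO minus Ctrl, ± SE) of each tested gene within 1 Mb of the Serpina3 genes, by the distance of its start from the start of Serpina3f in kb. Ticks mark serpin amplicons under 1 RPM. Serpina3f at 3.05 and Serpina3g at 1.95 lie above all neighbours shown, which range from -0.41 for Asb2, the one that passed, to 0.32.

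Serpins of other clades were read at all levels and moved in both directions. Of the 54 other serpin amplicons, 13 could be tested, 3 were higher, 2 lower and 8 did not pass. That is 38.5% called, against 16.7% over all amplicons, with a median log2 difference of -0.03 against -0.06. The count of 5 called was 3, or 23.1%, without control replicate 1.

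The inhibitor with the greatest fall was Serpine2, or protease nexin 1, which blocks thrombin and plasminogen activators at the cell surface. It was read at 260, 261 and 264 RPM in the knockout libraries and at 487, 478 and 465 RPM in the control libraries. The groups were far apart and each was tight, with a log2 difference of -0.86 ± 0.07 (SE, limma adjusted p = 9.64e-09). Serpinb9, an intracellular inhibitor of granzyme B, fell to 4.55 ± 0.796 RPM in knockout samples, against 8.25 ± 0.223 RPM in control samples (SD, n = 3 each, limma adjusted p = 0.00351). Serpinb9 has several close paralogues, so its reads may be shared.

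Serpinb8, an intracellular inhibitor of furin-like proteases, was higher, at 31.0 ± 3.96 RPM in knockout and 19.6 ± 0.508 RPM in control samples (log2 difference 0.63, limma adjusted p = 7.86e-04, n = 3 each). Serpinb10 was at 2.67 ± 0.0588 RPM in knockout and 1.38 ± 0.148 RPM in control samples (adjusted p = 0.0356), and its call was lost when any 1 of the 6 libraries was left out.

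Other serpins did not pass. Serpinh1, the collagen chaperone HSP47, was at 1546 ± 48.6 RPM in knockout and 1537 ± 28.4 RPM in control samples (limma adjusted p = 0.957), with a sign that turned with quantile normalization. Serpinf1, whose product PEDF is needed for normal mineralization, was at 565 ± 35.9 RPM in knockout and 647 ± 36.4 RPM in control samples (log2 difference -0.20, adjusted p = 0.0700). That value passed with array weights (0.0187) and without knockout replicate 3 (0.0392). Serping1, the C1 inhibitor of complement, was at 60.2 ± 1.12 RPM in knockout and 61.4 ± 5.07 RPM in control samples (adjusted p = 0.888), and its sign turned with each other scaling.

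**Figure D3:**
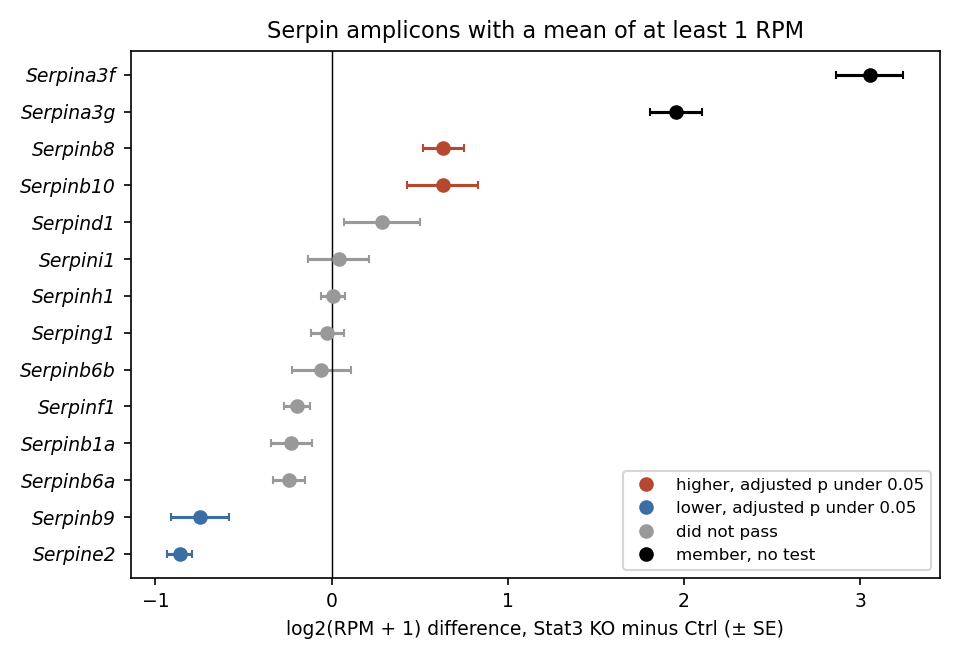
Log2 difference in RPM + 1 (Stat3 KO minus Ctrl, ± SE) of the tested serpin amplicons, 1 left out, coloured by the limma call. Serpina3f and Serpina3g are in black and carry no test. The other serpins shown lie between -0.86 for Serpine2 and 0.63 for Serpinb8 and Serpinb10.

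Serpina3 genes are counted among acute phase genes, and among the other genes of that response more were lower than higher. Of 35 listed, 32 were in the table and 14 could be tested, of which 2 were higher, 7 lower and 5 did not pass. Of these 14, 64.3% were called, and their median log2 difference was -0.46, against 16.7% and -0.06 over all amplicons. The complement component C3 was higher (log2 difference 1.37, limma adjusted p = 1.13e-06), as was the metallothionein gene Mt1 (0.56), which was picked after its values were seen. The lower genes included the complement component C4b, at 0.288 ± 0.0621 RPM in knockout and 3.13 ± 0.923 RPM in control samples (log2 difference -1.66, limma adjusted p = 3.94e-05, n = 3 each). C4b passed the filter of 1 RPM only through the control group. It has a near-identical copy, so its reads may be shared. The iron carriers Ltf (-1.49) and Lcn2 (-1.07), the calprotectin subunit S100a9 (-1.27) and haptoglobin, Hp (-0.89), were lower as well. The metalloreductase Steap4 was at 38.1 ± 2.49 RPM in knockout and 34.8 ± 0.517 RPM in control samples and did not pass (limma adjusted p = 0.424).

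Neutrophil markers moved with this list. Of them, 5 of the 6 tested (9 in the table) were lower, against 11% over all amplicons, and the whole list summed to 42.1 to 45.6 RPM in knockout and 95.02 to 95.6 RPM in control libraries, with Elane, Mpo and Prtn3 under 1 RPM. Ltf, S100a8 and S100a9 are on both lists. Without them, 2 of 11 acute phase genes were higher and 4 lower. This took out only genes on the marker list, so Lcn2 and Hp stayed in. The rest is therefore not known to be free of neutrophil transcripts. The part of neutrophil content in the acute phase result was not tested. Liver markers were near 0: 7 of the 10 were in the table, they summed to 1.10 to 2.86 RPM in knockout and 1.40 to 1.87 RPM in control libraries, and Fgb had no read.

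Most tested genes known to respond to interferon gamma were higher. Of 27 listed, 23 were in the table and 20 could be tested, of which 17 were higher, 0 lower and 3 did not pass. That is 85% called, with a median log2 difference of 1.02, against 16.7% called, 5.71% higher and a median of -0.06 over all amplicons. This rise was known from earlier results on these libraries, so it is not independent evidence. The GTPase gene Gbp4 (3.85), the chemokine genes Cxcl10 (3.40) and Cxcl9 (3.32) and Gbp2 (2.55) had the greatest log2 differences. Serpina3f (3.05), which is not on the list, lay between Cxcl9 and Gbp2, and Serpina3g (1.95) lay just above Gbp3 (1.90). This order depends on the pseudocount. With 0.1 RPM in place of 1 RPM, Serpina3f (4.46) lay above Cxcl10 (4.04) and Cxcl9 (3.71), and Serpina3g (2.10) lay below Gbp3 (2.30). The MHC light chain gene B2m (0.12, limma adjusted p = 0.298) and Wars (0.08, adjusted p = 0.632) did not pass.

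The signals and factors that can act on Serpina3 genes were mixed. Of 37 listed, 35 were in the table and 29 could be tested, of which 4 were higher, 4 lower and 21 did not pass. That is 27.6% called, with a median of -0.04, against 16.7% and -0.06 over all amplicons. The count of 8 was 5 without knockout replicate 2, without control replicate 1 or without control replicate 2. The cytokine gene Il1b was at 2.09 ± 0.443 RPM in knockout and 0.270 ± 0.0536 RPM in control samples on 3 to 4 reads in each control library (log2 difference 1.27 ± 0.23, SE, limma adjusted p = 7.25e-04, n = 3 each). Il1b passed the filter of 1 RPM only through the knockout group, and its log2 difference ran from 0.23 to 3.02 over the alternatives. Irf1, a transcription factor of the interferon response, was higher by 0.74 on the log2 scale. The other 2 higher genes, Nfkb2 and Tsc22d3, were named after their values were seen, and lost their calls in 7 and 6 alternatives. The oncostatin M receptor Osmr (-0.73), the interferon receptor chain Ifnar2 (-0.48, limma adjusted p = 0.00639) and the kinase Jak2 (-0.47, adjusted p = 0.00460) were lower, while Irf9 (-0.52) lost its call in 9 alternatives. The shared receptor Il6st was at 256 ± 4.62 RPM in knockout and 269 ± 11.7 RPM in control samples and did not pass (limma adjusted p = 0.557). Jak1 was at 226 ± 5.14 RPM in knockout and 195 ± 10.8 RPM in control samples (adjusted p = 0.0624), and passed with 5 of the alternatives. The cytokine gene Ifng itself had at most 1 read in any library, and Il6 at most 0.102 RPM in knockout and 0.430 RPM in control libraries.

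Few proteases of the list of possible targets passed the test. The list also holds the aspartic protease gene Ctsd and the metallocarboxypeptidase gene Cpa3, which are not known serpin targets. Of the 22 listed, all in the table, 12 could be tested, with 1 higher, 1 lower, 10 that did not pass and a median of -0.00. That is 16.7% called, near the share over all amplicons, and the count was 1 without knockout replicate 2, control replicate 1 or control replicate 2. Among lysosomal cathepsins, Ctsh fell to 17.2 ± 0.565 RPM in knockout samples, against 25.5 ± 2.07 RPM in control samples (log2 difference -0.54, limma adjusted p = 0.00317, n = 3 each). Ctsd rose to 953 ± 6.78 RPM in knockout samples, against 806 ± 57.0 RPM in control samples (0.24, adjusted p = 0.0203), and this call was lost without knockout replicate 2 (0.0720), control replicate 1 (0.0830) or control replicate 2 (0.108), with no filter (0.083) and with no variance trend (0.133). Ctsb, a protease that Serpina3g is known to inhibit, was at 657 ± 18.0 RPM in knockout and 594 ± 19.1 RPM in control samples (adjusted p = 0.152), and passed with DESeq2 (0.0350). Granzyme B, the target of Serpina3n, had at most 0.508 RPM in knockout and 0.411 RPM in control libraries.

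**Figure D4:**
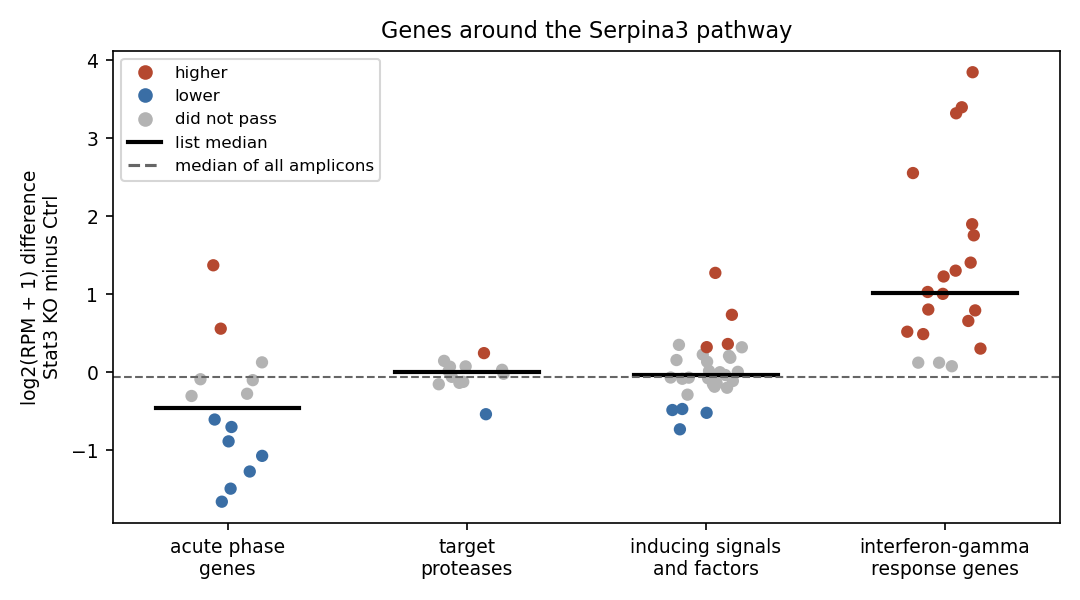
Log2 difference in RPM + 1 (Stat3 KO minus Ctrl) of each tested gene of 4 lists, with the list median as a bar and the median of all tested amplicons (-0.06) as a dashed line. The medians are -0.46 for acute phase genes, -0.00 for target proteases, -0.04 for inducing signals and factors, and 1.02 for interferon-gamma response genes.

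Macrophages and T cells are known to express Serpina3g. Macrophage markers had 4 higher and 1 lower of 12 tested (13 in the table, C1qa under 1 RPM), against 5.71% higher and 11% lower over all amplicons, and their median log2 difference was -0.01. The list summed to 537 to 574 RPM in knockout and 438 to 460 RPM in control libraries. Of the 11 T and NK cell markers, 10 were under 1 RPM and Cd8b1 had no read. That list summed to 5.26 to 8.04 RPM in knockout and 2.09 to 4.73 RPM in control libraries, and its 1 tested gene, the NK cell receptor gene Klrb1c, was higher. Lyz2, at a mean of 230 RPM in knockout and 134 RPM in control samples, and Cd68, at 125 RPM in knockout and 89.7 RPM in control samples, made up much of the macrophage sum, while Csf1r was lower, at 29.6 RPM in knockout and 39.9 RPM in control samples. The part of these cells in the Serpina3f and Serpina3g values was not tested.

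The genes most like each member over the 6 libraries were taken by the root mean square difference of log2(RPM + 1) values, each gene centred on its own mean, among 10504 genes with a mean of at least 5 RPM. For Serpina3f they were Cxcl9 (0.17), Cxcl10 (0.265), Gbp2 (0.27), the immunity-related GTPase gene Gm12250 (0.28) and Lrp10 (0.36), where the median over all candidates was 1.57. For Serpina3g they were Gbp3 (0.13), the epidermal gene Lor (0.23), Acin1 (0.28), C3 (0.31) and Psmb8 (0.33), where the median was 1.03. The 2 members differed from each other by 0.60. Lor is on the list of epidermis markers, which summed to 13.04 to 16.8 RPM in knockout and 3.87 to 4.76 RPM in control libraries, and the part of skin in these values was not tested. The measure follows the size of the group difference, so it names genes of like difference in these libraries, and it was not tested. It is given only for the pseudocount of 1 RPM, and the Serpina3f control mean of 0.407 RPM lies below that. With 0.1 RPM the log2 difference of Serpina3f moved from 3.05 to 4.46. That of Cxcl9 moved from 3.32 to 3.71, and that of Cxcl10 from 3.40 to 4.04. The genes named as closest may therefore change with the pseudocount.

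**Figure D5:**
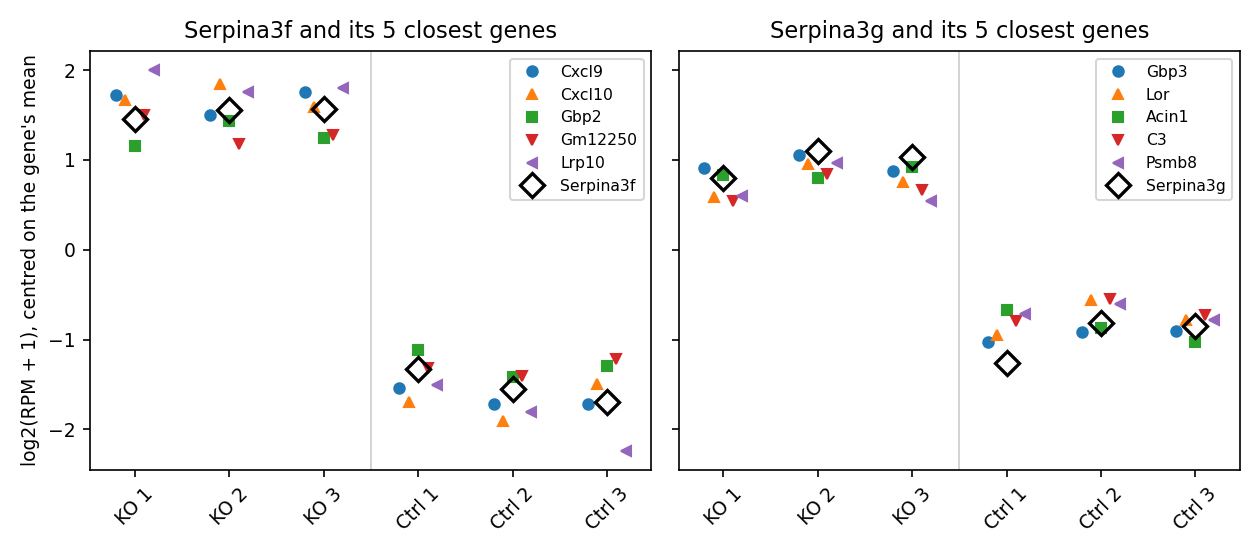
log2(RPM + 1) centred on each gene's mean in the 3 Stat3 KO and 3 Ctrl libraries, for Serpina3f (left) and Serpina3g (right) as open diamonds and for the 5 genes closest to each by root mean square difference. All 6 genes of each panel lie above 0 in knockout and below 0 in control libraries.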

How the data were processed

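RNA from the humerus shaft had been extracted with Trizol, copied with a SuperScript VILO kit and amplified with the Ion AmpliSeq mouse panel on an Ion Chef, per the labels' protocols. The authors deposited RPM values, each column scaled to its own total. No aligner, counter or build is named in the sources used here. Low values were whole multiples of 1 step per column, so reads were recovered, and 100% of values up to 100 reads were whole within 0.1 read. A total of 27 symbols stored as dates were read back from the amplicon names.

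Groups came from the sample titles. log2(RPM + 1) was compared with limma 3.58.1 in R 4.3.3 (empirical Bayes with trend) over the 12846 amplicons averaging 1 RPM or more, two-sided, with Benjamini-Hochberg adjustment over all of them and a threshold of 0.05. edgeR 4.0.16 and DESeq2 1.42.0 on recovered reads, other pseudocounts, filters, scalings and variance models, a replicate block and leaving out each library were alternatives. The labels do not say that replicates were separate animals, so p-values reflect only how far these samples spread, and that spread may be technical.

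The members and lists were chosen with earlier results of these data known. Genes were named by a rule. From each list it took up to 6 called genes by size and up to 2 uncalled ones by level. It also took Stat3, tested serpins, called neighbours, up to 4 uncalled neighbours by distance, and the 5 closest genes. Genes under 1 RPM, cell type markers, Cpa3, Mt1, Nfkb2 and Tsc22d3 were named outside it. Gene positions are from GENCODE M21 (GRCm38), matched by symbol, and promoters from RefSeq. Of the serpins counted as higher, 1 is not reported here by name or in the plot.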

Additional observations from a re-analysis of the deposited data

Results flagged for a closer look

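Among amplicons with a mean under 1 RPM over all 6 libraries, which no test used, 6 genes of the serpin family, the acute phase genes and the proteases had at least 3 reads in every knockout library and a higher RPM there than in any control library. The inhibitor gene Serpinb2 averaged 0.821 RPM over the knockout libraries, with 14, 7 and 5 reads, against 0, 1 and 1 reads in controls. Serpina3h averaged 0.461 RPM over the knockout libraries, with 4, 3 and 7 reads in knockout and 3, 3 and 1 reads in control libraries. The acute phase gene Saa3 averaged 0.788 RPM over the knockout libraries, with 8, 7 and 9 reads in knockout and 0, 2 and 0 reads in control libraries. Lrg1 averaged 0.565 RPM over the knockout libraries, with 10, 4 and 4 reads in knockout and 3, 1 and 3 reads in control libraries. The protease gene Ctsg averaged 0.959 RPM over the knockout libraries, with 10, 12 and 7 reads in knockout and 8, 7 and 6 reads in control libraries. Granzyme A, Gzma, averaged 1.25 RPM over the knockout libraries, with 14, 16 and 8 reads in knockout and 3, 3 and 4 reads in control libraries. Of the cell type markers under 1 RPM, Krt10, with 13, 13 and 10 reads in knockout and 6, 4 and 6 reads in control libraries, and Cd3g, with 5, 9 and 5 reads in knockout and 3, 3 and 2 reads in control libraries, showed the same order. The rule admitted only genes higher in the knockout, so their direction was fixed by it. The share of all amplicons under 1 RPM that met it is not given here. The opposite order also occurred, as in the acute phase gene Fgg, with 0, 2 and 0 reads in knockout and 4, 4 and 19 reads in control libraries. These counts are small and none of the differences was tested.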

How the results depend on the processing

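In every alternative Serpina3f and Serpina3g stayed higher in the knockout. Their log2 differences were 4.46 (Serpina3f) with a pseudocount of 0.1 RPM, 0.99 and 1.18 (Serpina3f and Serpina3g) with 10 RPM, 4.73 (Serpina3f) with edgeR, and 4.78 and 2.16 with DESeq2. Leaving out each library gave 2.97 to 3.15 for Serpina3f and 1.81 to 2.04 for Serpina3g. Serpina3n was at the read floor and was not recomputed. The 2142 amplicons called became 1392 with no filter, 995 without the variance trend and 1171 to 2029 on leaving out each library, with 1321 without knockout replicate 2, 1230 without control replicate 1 and 1171 without control replicate 2. The higher share of calls, 34.2%, was 52.9% with TMM and 53.3% with edgeR. Counts on leaving out each library were 3 to 5 other serpins, 1 to 2 target proteases, 5 to 6 inducing factors and 1 to 2 neighbours, and without the variance trend 1 target protease was called. Serping1 turned to 0.0305 with TMM, 0.0281 with edgeR, 0.0364 and 0.0367 with median-of-ratios and quantile scaling, 0.0342 with DESeq2, 0.0079 with array weights, and -0.092 to 0.0225 on leaving out each library. Serpinh1 turned to -0.0525 with quantile normalization, -0.0102 with array weights, and -0.0074 to 0.0337 on leaving out each library. The causes were not tested. Whether the replicate numbers pair the samples was not settled. Deviations from the group means correlated at 0.0126, -0.0193 and 0.107 for same-numbered samples, and at -0.0983 to 0.0979 for the others. These correlations were not tested. The replicate block called 2462 amplicons and 5 other serpins. The list without neutrophil markers was chosen after seeing the data. Depth limits Serpina3f in controls, at 15 reads in all, and Serpina3n throughout.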
